A study of Mus musculus with 4 samples.

Results

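The glucocorticoid-responsive genes described here are 8 of the 32285 genes counted in single cells of mouse spinal cord: Nr3c1, Fkbp5, Tsc22d3, Sgk1, Zbtb16, Map3k6, Depp1 and Pdk4. They were found by symbol, and each symbol named 1 gene. The set was chosen with measured values of these libraries in view, above all the endothelial ratio between P301S hom and P301S neg mice, so the levels and folds below describe the genes and test nothing. P301S is a mutant form of the human microtubule-associated protein tau, and mice that carry it as a transgene are used to model tauopathy. Mice homozygous for it (P301S hom) formed 3 groups, CD8 WT at 30 and at 33 weeks of age and CD8 KO at 30 weeks, and mice negative for it (P301S neg, CD8 WT, 30 weeks) formed the 4th. Each group was 1 library made from the combined cords of 2 saline-perfused mice, dissociated in a heated device with enzymes and cleared of myelin. There was therefore no replicate library, and no difference below could be set against a spread between replicates. The promoter of the transgene, the strain, the sex of the mice and the hour of collection are not given in the labels, and no hormone was measured.

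Glucocorticoids, in mice chiefly corticosterone, are adrenal steroids that follow a daily rhythm and rise with stress. The hormone binds the glucocorticoid receptor, which is held by chaperones in the cytoplasm, and the receptor then enters the nucleus and binds DNA at paired half-sites called glucocorticoid response elements. In the vessels of the brain and cord these steroids are known for tightening the endothelial barrier. Nr3c1 encodes the receptor. Fkbp5 encodes a co-chaperone that lowers the receptor's affinity for hormone, a feedback step. Tsc22d3 encodes the leucine zipper protein GILZ, Sgk1 a kinase of ion transport and survival signalling, Zbtb16 the transcription factor PLZF, Map3k6 a kinase of stress-activated cascades, Depp1 a regulator of autophagy and Pdk4 a kinase that restrains pyruvate dehydrogenase. FoxO transcription factors also induce several of them, Depp1 and Pdk4 among these.

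The positions are those of the GENCODE M21 annotation of mm10. Fkbp5 (ENSMUSG00000024222) spans 28399094 to 28517527 of chromosome 17 on the minus strand, where it overlaps the counted genes AC154912.5 on its own strand and AC154912.1 on the other, so its reads could be split between annotations. Tsc22d3 (ENSMUSG00000031431) spans 140539528 to 140600659 of chromosome X on the minus strand. Sgk1 (ENSMUSG00000019970) spans 21882184 to 21999903 of chromosome 10 on the plus strand. Zbtb16 (ENSMUSG00000066687) spans 48654297 to 48836222 of chromosome 9 on the minus strand. Map3k6 (ENSMUSG00000028862) spans 133240818 to 133252929 of chromosome 4 on the plus strand. Depp1 (ENSMUSG00000048489) spans 116650609 to 116652794 of chromosome 6 on the plus strand and overlaps Rassf4 on the other strand. Pdk4 (ENSMUSG00000019577) spans 5483351 to 5496309 of chromosome 6 on the minus strand.

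Promoter windows from RefSeq on GRCm38.p6, the mm10 assembly, reached from 250 bases before to 50 bases after an annotated start and numbered 13 for 6 of the genes (Fkbp5, Tsc22d3, Sgk1, Map3k6, Depp1 and Pdk4). They were searched for the palindromic response element, spelled as GNACA, then any 3 bases, then TGTNC (N is any base), which is its own reverse complement and so is searched on both strands at once. It was found in 156 of 32851 windows of all genes (0.475%) and in 2 of the 13, in front of Map3k6 and in front of 1 of the Sgk1 starts. The half-site AGAACA, searched on both strands, was in 19.0% of all windows and in 4 of the 13, and it overlaps the palindromic match at Sgk1. A match is a string of letters and not a measured binding site. The 250 bases before these starts are shown because they are the windows with the full element, which is in capitals: Map3k6 at chr4:133240568-133240817, with the match 181 to 169 bases before the start, and Sgk1 at chr10:21993640-21993889, with the match 188 to 176 bases before the start, both on the plus strand.
Map3k6: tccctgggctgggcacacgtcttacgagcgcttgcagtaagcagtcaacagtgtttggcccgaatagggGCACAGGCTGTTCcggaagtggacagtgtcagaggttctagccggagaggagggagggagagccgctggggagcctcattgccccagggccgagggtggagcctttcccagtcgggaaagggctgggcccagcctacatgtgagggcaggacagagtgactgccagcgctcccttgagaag
Sgk1: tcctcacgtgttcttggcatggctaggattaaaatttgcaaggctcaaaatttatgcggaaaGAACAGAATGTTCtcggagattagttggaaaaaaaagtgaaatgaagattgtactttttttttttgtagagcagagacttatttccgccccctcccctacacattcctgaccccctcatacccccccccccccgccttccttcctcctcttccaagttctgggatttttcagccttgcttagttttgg

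The libraries held 36331214 to 43531426 unique molecular identifiers (UMIs, each counting 1 captured transcript molecule). Of 22644 barcodes, 20186 passed the filters, with 5254 to 7163 median UMIs per cell, and 35 of 20151 distinct barcodes occurred in more than 1 library. Levels are CPM: the UMIs of a gene in all cells of a class and library, over all UMIs of those cells, in parts per 1e+06. Brackets give exact 95% intervals, Poisson for levels, conditional binomial for folds and Clopper-Pearson for shares of cells, and these cover counting error only, not the spread between mice. Cells with a Xist UMI and no Y-linked UMI were called female and those with the reverse male. By that measure P301S neg held 2043 female and 1568 male cells, P301S hom at 30 weeks 3723 and 0, P301S hom at 33 weeks 1686 and 1305, and the library labelled CD8 KO 4 and 3089. In the T or NK cells of the library labelled CD8 KO, Cd8a was 16.5 CPM (6.04 to 35.8), against 190.4 to 269 CPM in the others, which goes with the label. In endothelial cells it was 121 CPM (113 to 129) in that library, with no UMI in the other 3 (limits of 0.224, 0.449 and 0.534 CPM for a count of 0). The label alone does not account for UMIs found only in that library. How CD8 was disrupted is not given in the labels, and the source of these UMIs was not tested. Each direction given for that library rests on its label.

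Among the larger cell classes, with microglia taken as 1 class, endothelial cells carried the highest median level of 6 of the 8 genes. Over the 7 classes with at least 50 cells in every library (endothelial, mural, microglia, neutrophil, B, ependymal and erythroid cells), the median of the 4 libraries was highest in endothelium for Nr3c1 (209.7 CPM), Tsc22d3 (834 CPM), Sgk1 (512 CPM), Zbtb16 (122 CPM), Map3k6 (122 CPM) and Depp1 (313 CPM). The endothelial range did not overlap the range of the next class for Nr3c1, Zbtb16, Map3k6 and Depp1. For Tsc22d3 it overlapped B cells (319 to 663 CPM) and microglia (140.2 to 703 CPM), and for Sgk1 it overlapped microglia (366 to 720.2 CPM). Homeostatic microglia, a part of that class described below, held 618 to 759 CPM of Sgk1, above the endothelial range of 453 to 551 CPM. Their Tsc22d3 in P301S neg was 754 CPM, above the endothelial 543 CPM. Fkbp5 had its highest median in microglia (51.7 CPM, range 42.1 to 62.0), then neutrophils (32.8 CPM, 23.2 to 41.8) and endothelium (28.2 CPM, 5.76 to 36.1), and the endothelial and neutrophil ranges overlapped. Pdk4 was low throughout, with medians of 10.6 CPM in mural, 9.93 CPM in ependymal and 3.90 CPM in endothelial cells and at most 0.449 CPM elsewhere. Genes of different length can be set side by side here because the 3' method counts 1 tag per molecule, though capture can still differ between genes.

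Zbtb16, Map3k6 and Depp1 had the same first and second class among these 7. Mural cells, the pericytes and smooth muscle around vessels, came second for each, at medians of 39.1 CPM for Zbtb16, 10.8 CPM for Map3k6 and 46.3 CPM for Depp1. They also held 1658 to 2571 CPM of 12 endothelial markers, beside 23295 to 25208 CPM in endothelium. The part of endothelial transcripts in the mural levels was not tested. In neutrophils, B cells, microglia, ependymal and erythroid cells the medians of these genes ran from 0 to 5.24 CPM. Zbtb16 was not limited to vessels: in oligodendrocyte precursors, a class of 38 to 59 cells per library, it was 84.9 CPM in P301S neg and 75.0 to 118 CPM in P301S hom, above mural cells in every library and above endothelium in P301S neg. Across 50 combinations of class and library, the log2 levels of Map3k6 and Depp1 correlated at r = 0.923, Zbtb16 and Map3k6 at 0.849 and Zbtb16 and Depp1 at 0.846. Tsc22d3 and Nr3c1 correlated at 0.782, while Fkbp5 and Pdk4 stood at -0.327. These points share libraries and cell suspensions, so the values only describe likeness of pattern.

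**Figure D1:**
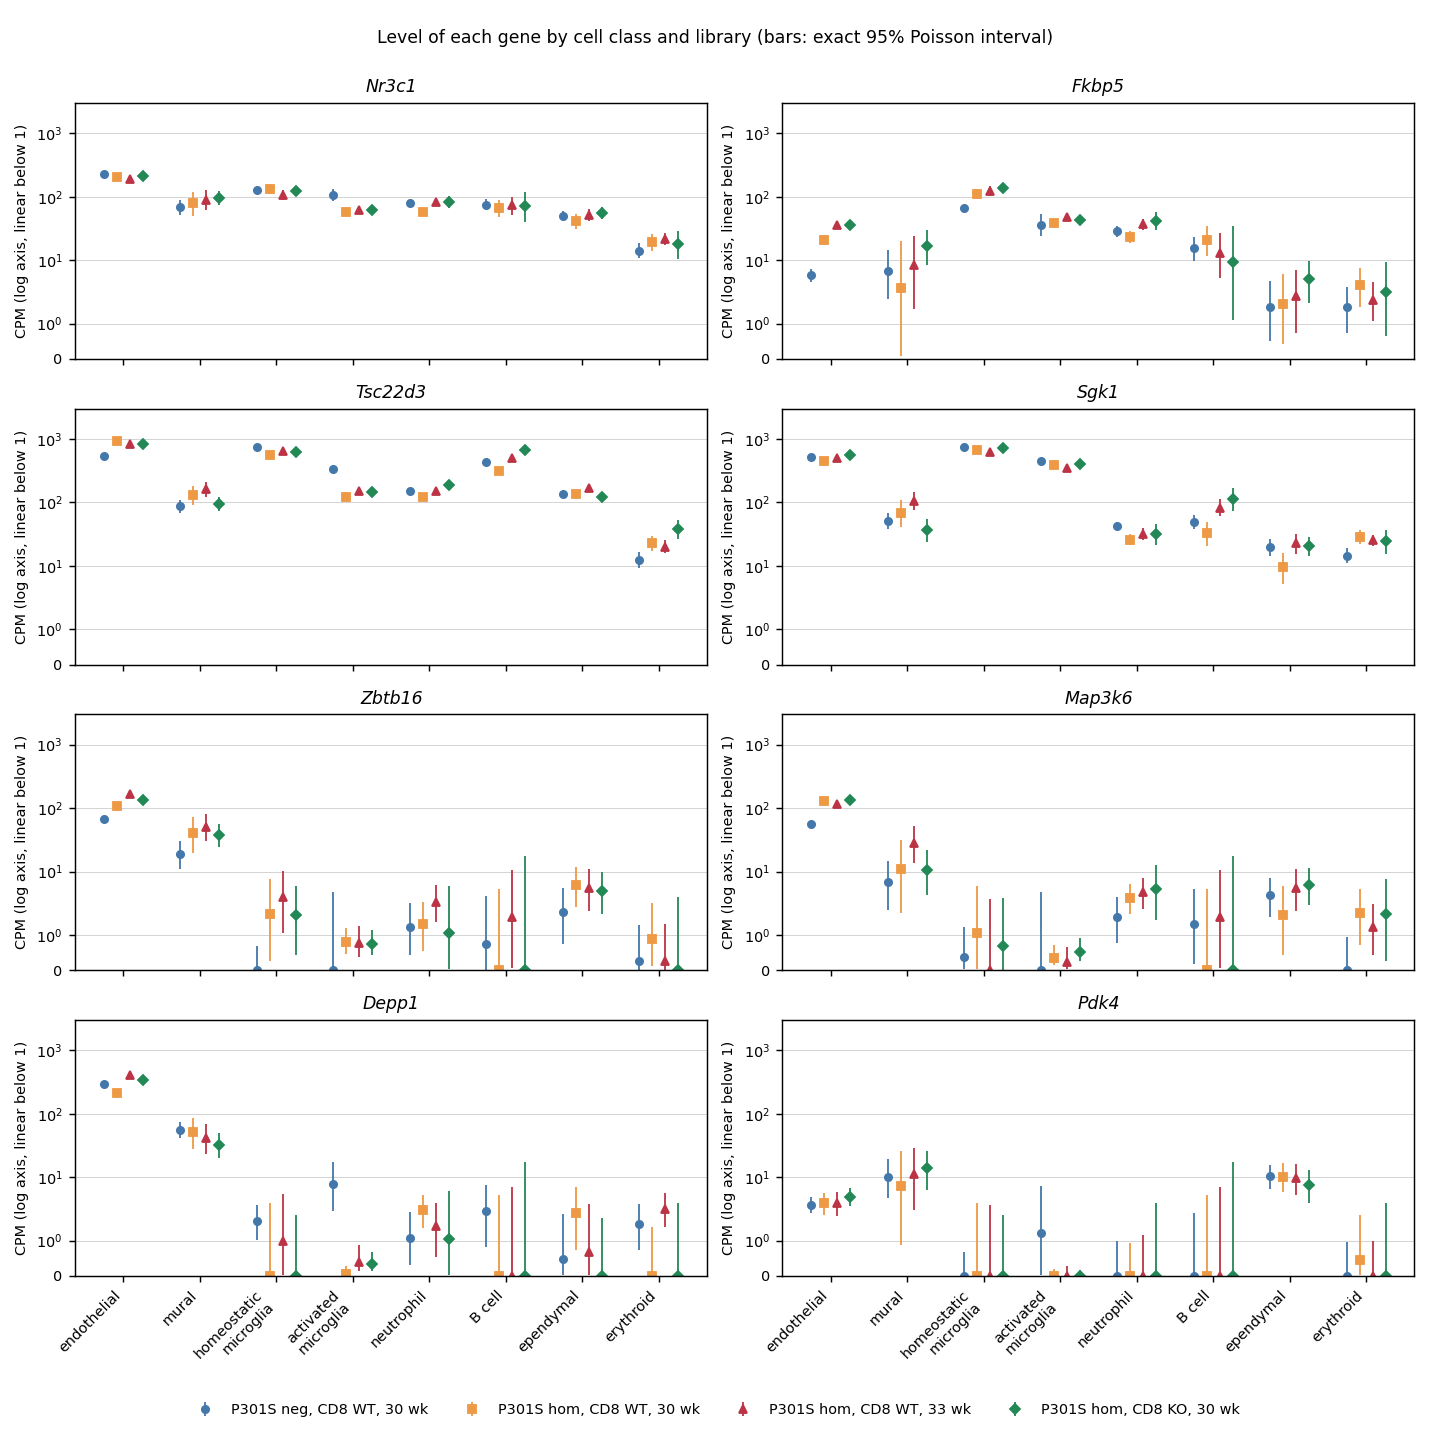
Level of each gene in CPM (vertical axis, logarithmic above 1 and linear below) by cell class, with 1 point per library and bars for the exact 95% Poisson interval. Endothelial points lie highest for Nr3c1, Zbtb16, Map3k6 and Depp1, while Fkbp5 is highest in homeostatic microglia and Tsc22d3 in activated microglia lies below its homeostatic level.

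Setting P301S hom against P301S neg at 30 weeks asks how these genes differ with the tau transgene. In endothelial cells (1777 cells in P301S neg, 1028 in P301S hom) 4 of the 8 genes were at least 1.5-fold higher and 0 at least 1.5-fold lower, where 4.48% and 6.7% of 11947 genes with at least 20 UMIs were. Since this contrast chose the genes, the count is given without weight. Their median log2 fold was 0.39, beside -0.04 over all measured genes. The 4 higher genes were Fkbp5, Map3k6, Tsc22d3 and Zbtb16, and the receptor was not among them.

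Nr3c1, the receptor, was lower in the P301S hom libraries than in P301S neg, by less than 1.5-fold. Its endothelial level was 229 CPM (221 to 237) in P301S neg, while P301S hom had 204 CPM (194 to 215) at 30 weeks, 189.9 CPM (179 to 202) at 33 weeks and, in the library labelled CD8 KO, 215 CPM (205 to 225). The P301S neg library was highest, and its interval overlapped only that of the library labelled CD8 KO. The fold of P301S hom over P301S neg at 30 weeks, called the tau fold below, was 0.893 (0.837 to 0.952).

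Fkbp5, the feedback co-chaperone, had the largest fold. Its endothelial level was 5.76 CPM (4.55 to 7.20) in P301S neg, while P301S hom had 20.5 CPM (17.2 to 24.2) at 30 weeks, 36.0 CPM (31.2 to 41.3) at 33 weeks and, in the library labelled CD8 KO, 36.1 CPM (32.1 to 40.5). P301S neg lay apart below the other libraries, and no interval of theirs reached it. The tau fold was 3.56 (2.67 to 4.77), from 137 UMIs against 77. An Fkbp5 UMI was found in 3.55% (2.73 to 4.51), 9.14%, 15.3% and 16.5% of endothelial cells in that order. Erythroid cells, which should hold little of this transcript, had shares of 1.70%, 4.29%, 1.70% and 2.02% at median depths of 9773.5, 8183.5, 6703.5 and 7894 UMIs, against 5587, 4746.5, 3952 and 4650 UMIs in endothelium. The endothelial share lay above the erythroid share in each library, at lower depth, with intervals that overlapped in P301S neg and in P301S hom CD8 WT at 30 weeks and did not overlap in the other libraries. With each cell thinned to 1000 UMIs, which left out 40 to 94 endothelial cells per library, the endothelial shares were 0.654%, 1.62%, 4.03% and 3.04%.

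Map3k6, a stress kinase, stood at 55.7 CPM (51.8 to 59.9) in P301S neg, while P301S hom had 128 CPM (119.7 to 137) at 30 weeks, 115 CPM (106 to 124) at 33 weeks and, in the library labelled CD8 KO, 135 CPM (127 to 143). All 3 P301S hom libraries lay above P301S neg, and their highest and lowest intervals, at 30 weeks in the library labelled CD8 KO and at 33 weeks, did not overlap. Its tau fold was 2.30 (2.08 to 2.54).

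Tsc22d3 (GILZ) was the most abundant of the 8 in endothelium. It was 543 CPM (530.4 to 555) in P301S neg, while P301S hom had 924 CPM (901 to 947) at 30 weeks, 829 CPM (805 to 853) at 33 weeks and, in the library labelled CD8 KO, 839 CPM (819 to 859). The P301S neg library was again the lowest, with a tau fold of 1.70 (1.64 to 1.76). A UMI was found in 81.8%, 89.7%, 87.0% and 88.5% of endothelial cells, and in 39.0%, 56.6%, 53.5% and 56.2% after thinning, beside 8.24%, 8.57%, 8.51% and 13.1% of erythroid cells.

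Zbtb16 (PLZF) was 67.9 CPM (63.5 to 72.4) in P301S neg, while P301S hom had 109 CPM (101 to 117) at 30 weeks, 169.6 CPM (159 to 181) at 33 weeks and, in the library labelled CD8 KO, 135 CPM (127 to 143). No intervals of the 4 libraries overlapped, and the tau fold was 1.61 (1.46 to 1.77).

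The other members lay within 1.5-fold. Depp1 was 289.8 CPM (281 to 299) in P301S neg, while P301S hom had 215 CPM (204 to 227) at 30 weeks, 415 CPM (398 to 432) at 33 weeks and, in the library labelled CD8 KO, 337 CPM (325 to 349.8), so P301S neg lay between the P301S hom libraries. Its tau fold was 0.744 (0.699 to 0.790). Sgk1 was 521 CPM (509 to 533), 453 CPM (437 to 469.5), 504 CPM (486 to 523) and 551 CPM (535 to 567) in the same order, with a tau fold of 0.870. These levels span a narrow range, with P301S hom at 30 weeks lowest. Pdk4 was 3.67, 3.89, 3.92 and 4.88 CPM from 22 to 49 UMIs, with a tau fold of 1.06 (0.633 to 1.74), which leaves a change of either direction within counting error.

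**Figure D2:**
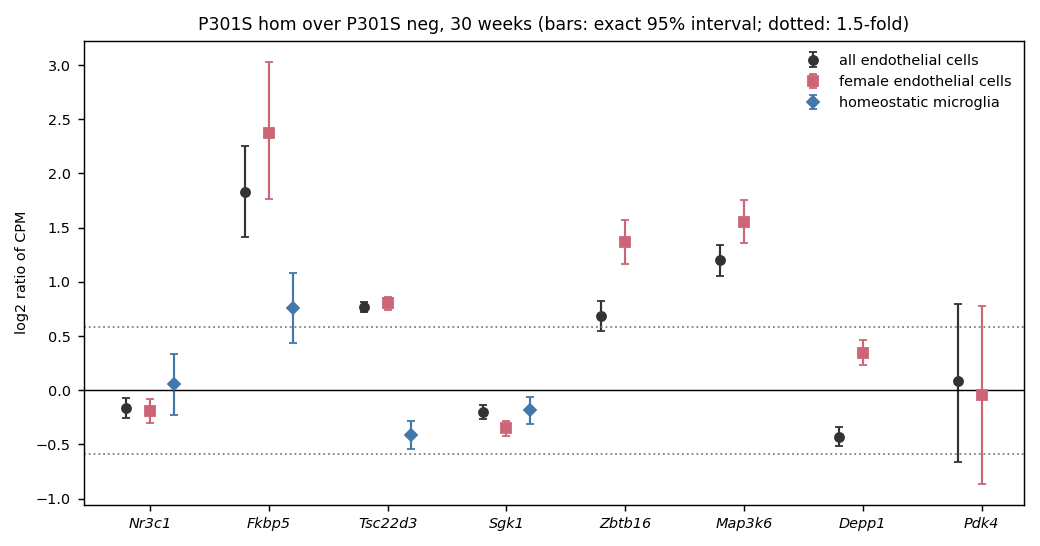
Log2 fold of P301S hom over P301S neg at 30 weeks (vertical axis) for each gene with at least 20 UMIs, in all endothelial cells, female endothelial cells and homeostatic microglia, with exact 95% conditional-binomial intervals and dotted lines at 1.5-fold. Fkbp5, Tsc22d3, Zbtb16 and Map3k6 lie above the upper line in both endothelial sets, while among homeostatic microglia only Fkbp5 does.

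The P301S hom library at 30 weeks held no male cell, whereas P301S neg held both sexes, so the endothelial cells were split. Sex calls need a UMI and so favour deeper cells. The 6 resulting pools are P301S neg female (818 cells) and male (474), P301S hom at 30 weeks female (864), at 33 weeks female (324) and male (348), and the library labelled CD8 KO male (713). Each library was made from 2 mice, so in the libraries that held both sexes (P301S neg, and P301S hom at 33 weeks) each pool is 1 mouse, while the pools of P301S hom at 30 weeks and of the library labelled CD8 KO join both mice of the library. In every comparison of pools below, at least 1 side is therefore a single mouse, and where both sides are, the difference between the sexes or groups cannot be told apart from that between 2 animals.

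Within P301S neg, male endothelial cells exceeded female cells by at least 1.5-fold in 4 of the 8 genes, where 4.22% of all measured genes did, and lay 1.5-fold below in 1, where 11.1% did. Depp1 was 432 CPM (413 to 452) in male and 167 CPM (157 to 177) in female cells, a fold of 2.59 (2.41 to 2.79). Zbtb16 was 103 against 43.1 CPM (2.39-fold), Fkbp5 8.87 against 3.98 CPM (2.23-fold, 1.34 to 3.76) and Map3k6 76.1 against 42.8 CPM (1.78-fold). The lower gene was Pdk4 at 0.607 (0.282 to 1.23), an interval that includes 1. Tsc22d3 (562 against 528 CPM) and Nr3c1 (227 against 236 CPM) were nearly level. The heat-shock genes moved with this split: their summed level was 15442 CPM in the male and 4368 CPM in the female cells of P301S neg, and 6017 to 7307 CPM in the 4 P301S hom pools. Hspa1a alone was 2559 CPM in the male and 205 CPM in the female cells. Whether heat shock has a part in the male levels was not tested. At 33 weeks male cells exceeded female cells in 2 of 7 measured genes (background 5.61%), Fkbp5 at 45.1 against 13.9 CPM (3.25-fold, 2.10 to 5.20) and Zbtb16 at 199 against 131 CPM (1.52-fold). Here the heat-shock sums were alike, 6955 CPM in male and 7307 CPM in female cells.

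Comparing female cells alone, the same 4 genes were at least 1.5-fold higher in P301S hom than in P301S neg at 30 weeks (background 4.93%). Fkbp5 was 20.6 against 3.98 CPM (5.18-fold, 3.40 to 8.17), Map3k6 125 against 42.8 CPM (2.93-fold), Zbtb16 111 against 43.1 CPM (2.58-fold) and Tsc22d3 919.6 against 528 CPM (1.74-fold). Depp1 stood at 1.27 (1.17 to 1.38), above 1 where all cells gave 0.744, and Sgk1 at 0.784. The Depp1 direction thus turned when male cells were left out.

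Pools at 33 weeks gave each sex its own comparison with P301S neg, with age and genotype changing together. In female cells 5 of 8 genes were at least 1.5-fold higher (background 3.97%): Fkbp5 3.48 (1.95 to 6.20), Zbtb16 3.05, Map3k6 2.56, Depp1 2.23 and Tsc22d3 1.52. In male cells 5 of 8 were higher (background 6.29%): Fkbp5 5.08 (3.52 to 7.47), Zbtb16 1.93, Pdk4 1.74 (0.694 to 4.30), Map3k6 1.61 and Tsc22d3 1.53, with Depp1 at 0.953. Male cells of the library labelled CD8 KO against male P301S neg gave 3 higher of 8 (background 6.23%): Fkbp5 4.18 (2.98 to 5.98), Pdk4 1.97 (0.986 to 4.22) and Map3k6 1.77. Tsc22d3 at 1.46 (1.39 to 1.53) and Zbtb16 at 1.36 (1.21 to 1.52) did not reach the limit there. These comparisons reuse the P301S neg pools, so they are not independent of each other. For Fkbp5, Tsc22d3, Zbtb16 and Map3k6 the P301S neg pool was the lowest pool of its sex.

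**Figure D3:**
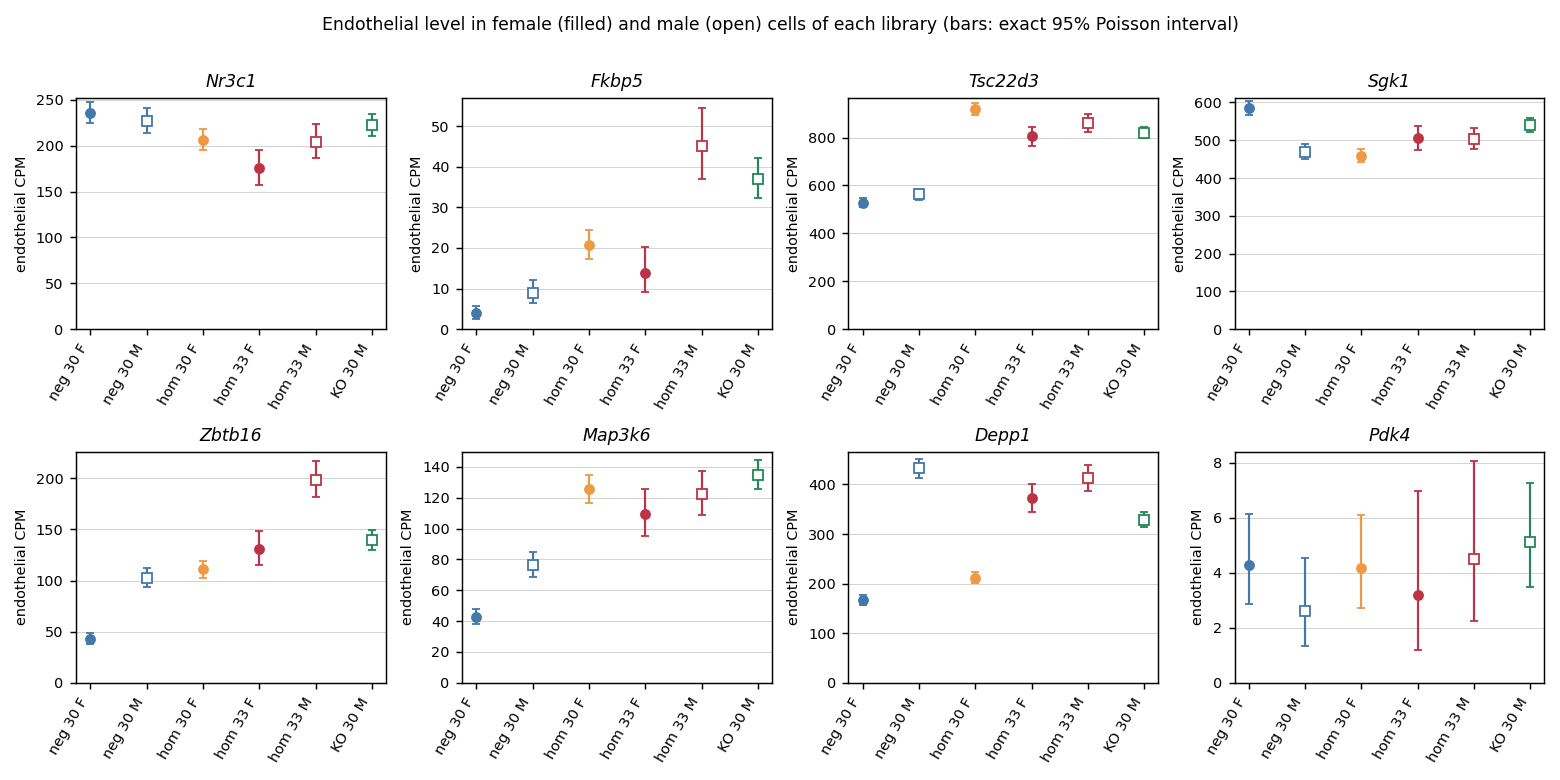
Endothelial level in CPM (vertical axis) of each gene in the 6 pools of female (filled circles) and male (open squares) cells, with exact 95% Poisson intervals. Fkbp5 runs from 3.98 CPM in P301S neg female cells to 45.1 CPM in P301S hom male cells at 33 weeks, and Depp1 in P301S neg is 167 CPM in female and 432 CPM in male cells.

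Other features of the endothelial cells also differed between libraries. Summed over 13 microglial markers, none of them at 0, the endothelial sums were 147 CPM in P301S neg, 498 CPM and 305 CPM in P301S hom at 30 and 33 weeks and 481 CPM in the library labelled CD8 KO. Microglia themselves held 32734 to 38241 CPM of these markers, at most 0.988 CPM of Zbtb16 and at most 0.524 CPM of Map3k6. Their Fkbp5 was 62.0 CPM in P301S neg and 42.1, 53.7 and 49.6 CPM in the P301S hom libraries, above the endothelial level in each library. Their Tsc22d3 was 703 CPM in P301S neg, above the endothelial 543 CPM, and 140.2 to 187 CPM in the P301S hom libraries, below the endothelial levels. Erythroid markers summed to 3307, 575, 9743 and 700.5 CPM in the same order of libraries, endothelial markers to 23295 to 25208 CPM and immediate-early genes to 34156 to 36892 CPM. The part of these differences in the folds was not tested.

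The endothelium was next split into zones by its clusters: 3 capillary clusters (1145, 716, 761 and 868 cells in the 4 libraries), 1 arterial (302, 146, 131 and 196) and 1 venous (330, 166, 144 and 209). In capillary cells the 4 genes were at least 1.5-fold higher in P301S hom at 30 weeks (background 4.55%): Fkbp5 3.35, Map3k6 2.57, Tsc22d3 1.73 and Zbtb16 1.71, and Depp1 was lower at 0.649 (background 7.56%). In venous cells 4 of 7 measured genes were higher (background 5.76%), Fkbp5 4.68, Map3k6 2.46, Zbtb16 1.69 and Tsc22d3 1.62, and again Depp1 was lower at 0.577 (background 8.7%). In arterial cells 3 of 7 were higher (background 5.86%), Fkbp5 2.15 (0.989 to 4.64), Map3k6 1.73 and Tsc22d3 1.62. Over the 5 endothelial clusters one by one, P301S hom exceeded P301S neg in 5 for Tsc22d3 and Map3k6, in 4 for Fkbp5, Zbtb16 and Pdk4, in 2 for Depp1, in 1 for Sgk1 and in 0 for Nr3c1. No minimum of UMIs was set there, and Pdk4 stood at only 1.63 to 5.79 CPM, so its count carries no weight. The clusters come from the same libraries and are not replicates, and the share of all genes was not computed.

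Fkbp5 and Depp1 lay at opposite ends of the vessel tree. Fkbp5 was highest in venous cells of every library, at 9.47 CPM (6.73 to 12.9) in P301S neg, while P301S hom had 44.3 CPM (35.1 to 55.1) at 30 weeks, 56.1 CPM (43.7 to 71.1) at 33 weeks and, in the library labelled CD8 KO, 68.6 CPM (58.2 to 80.3). Capillary cells had 3.46, 11.6, 31.8 and 23.4 CPM, and arterial cells 5.53, 11.9, 25.5 and 24.8 CPM. Depp1 was highest in arterial cells of every library, at 460.1, 465, 790.5 and 608 CPM, and lowest in venous cells, at 179, 104, 237 and 273 CPM, the last of which overlapped the capillary level of 282 CPM within counting error. The clusters were made from the same cells with the 8 genes left out of the genes clustered on, so the zones describe the cells and test no difference between zones.

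**Figure D4:**
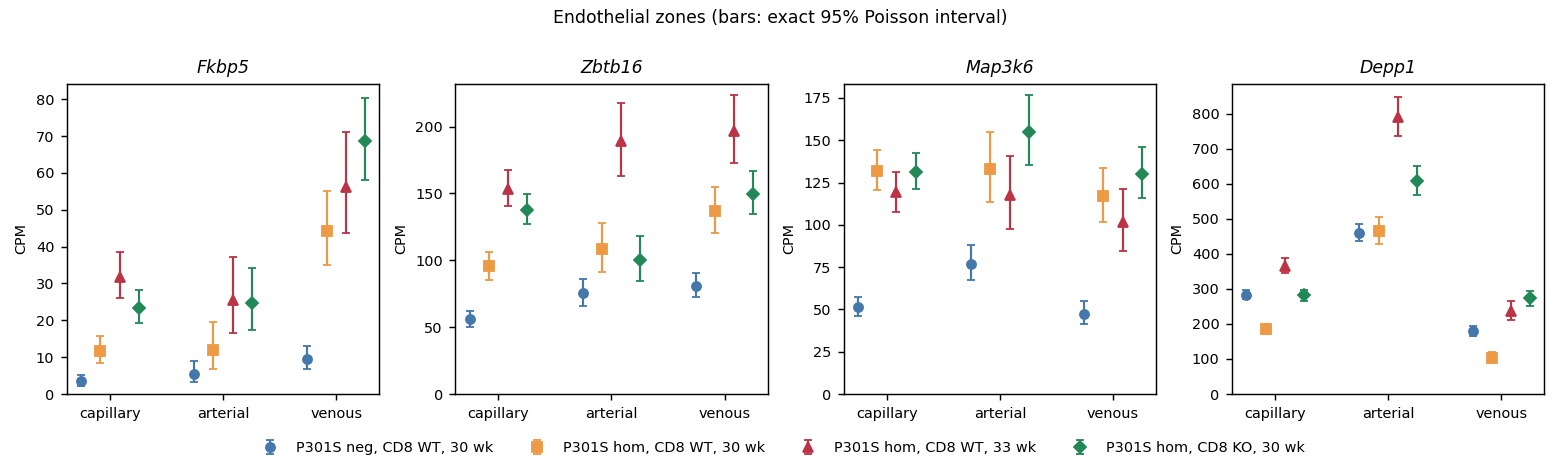
Level in CPM (vertical axis) of Fkbp5, Zbtb16, Map3k6 and Depp1 in capillary, arterial and venous endothelial cells of the 4 libraries, with exact 95% Poisson intervals. Venous cells are highest for Fkbp5 and arterial cells for Depp1, and the P301S neg point is the lowest of each zone for the first 3 genes.

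The library labelled CD8 KO was set against P301S hom CD8 WT at 30 weeks, which asks about the absence of CD8. The latter held female cells only and the former male cells but for 4, so sex and label cannot be told apart. In endothelial cells (1273 against 1028) 2 of 8 genes were at least 1.5-fold higher (background 2.85%) and 0 lower (background 3.92%): Fkbp5 at 1.76 (1.43 to 2.17) and Depp1 at 1.56 (1.47 to 1.67). Of the 4 genes at least 1.5-fold higher in male than in female cells of P301S neg, Fkbp5 and Depp1 passed here and Zbtb16 and Map3k6 did not. At 33 weeks the genes higher in male cells were Fkbp5 and Zbtb16, without Depp1. Each of those sexes is 1 mouse, and the part of sex in this comparison was not tested. Against the male cells of P301S hom at 33 weeks, the male cells of the library labelled CD8 KO were higher in 0 of 8 genes (background 5.96%) and lower in 0 (background 4.26%), though age differed. There Fkbp5 was 37.0 against 45.1 CPM (0.821-fold, 0.651 to 1.04) and Depp1 329 against 412 CPM (0.798-fold).

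The comparison of 33 with 30 weeks in P301S hom CD8 WT mice uses the same library at 30 weeks. In endothelial cells 3 of 8 genes were at least 1.5-fold higher at 33 weeks (background 3.04%) and 0 lower (background 5.13%): Depp1 1.93 (1.80 to 2.06), Fkbp5 1.76 (1.41 to 2.20) and Zbtb16 1.55 (1.41 to 1.71). In female cells alone 1 of 8 was higher (background 3.98%), Depp1 at 1.76 (1.60 to 1.93). Fkbp5 then turned to 0.672 (0.423 to 1.03) and Zbtb16 to 1.18, so the direction of Fkbp5 turned when male cells were left out.

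In microglia, the resident macrophages of the cord, 4 of the 8 genes had at least 20 UMIs in the tau comparison: Nr3c1, Fkbp5, Tsc22d3 and Sgk1. Zbtb16 reached 0 to 0.988 CPM, Map3k6 0.212 to 0.524 CPM, Depp1 0.0480 to 2.76 CPM and Pdk4 0 to 0.162 CPM. Different clusters made up the class: 76.9% of P301S neg microglia were in homeostatic cluster 3, while those of P301S hom at 30 weeks were in activated clusters 1 (33.0%), 9 (28.5%) and 0 (23.5%), with 9.09% in cluster 3. Over all microglia (1309 and 1926 cells) 0 of 4 genes were higher in P301S hom (background 11.5%) and 3 at least 1.5-fold lower (background 36.7%). Tsc22d3 was 703 CPM (682 to 724) in P301S neg, while P301S hom had 140.2 CPM (135 to 145) at 30 weeks, 187 CPM (179 to 194) at 33 weeks and, in the library labelled CD8 KO, 179 CPM (173 to 184), so the 3 P301S hom libraries lay far below P301S neg. In P301S hom at 30 weeks Tsc22d3 was thus 5.01-fold lower (4.78 to 5.25). The tau fold of Nr3c1 was 0.485 and that of Sgk1 0.553, and Fkbp5 stood at 0.679. All measured genes of this class had a median log2 fold of -0.38, and trimmed-mean (TMM) scaling shifted the folds by 0.44. Under it the log2 folds were -1.89 for Tsc22d3, -0.61 for Nr3c1, -0.42 for Sgk1 and -0.12 for Fkbp5, so 2 of 4 genes were lower.

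Within homeostatic microglia (1007, 175, 204 and 274 cells) the picture differed from that over the whole class. Of 4 genes, 1 was at least 1.5-fold higher in P301S hom at 30 weeks (background 7.17%) and 0 were lower (background 10.3%). Fkbp5 was 65.6 CPM (58.9 to 72.8) in P301S neg, while P301S hom had 111 CPM (90.9 to 135) at 30 weeks, 124 CPM (103 to 147) at 33 weeks and, in the library labelled CD8 KO, 137 CPM (119 to 158). P301S neg was lowest and apart, and the P301S hom intervals overlapped each other. The tau fold was 1.69 (1.35 to 2.11), and in female cells alone Fkbp5 again passed 1.5-fold. At 33 weeks Fkbp5 was at least 1.5-fold above P301S neg in male cells but not in female cells. Male cells of the library labelled CD8 KO also passed 1.5-fold over male P301S neg cells. Male cells exceeded female cells by at least 1.5-fold at 33 weeks but not in P301S neg, where each sex is 1 mouse in both libraries. Other genes also differed between libraries in these cells. Markers of activated microglia, 9 in number, summed to 1036 CPM in P301S neg and to 5322, 8841 and 4749 CPM in the P301S hom libraries. The 11 heat-shock genes summed to 6703 CPM against 4164, 4385 and 3755 CPM. By sex, the heat-shock sum in P301S neg was 3476 CPM in female and 10532 CPM in male cells. Female cells of P301S hom at 30 weeks had 4161 CPM, above the female cells of P301S neg. The part of these markers and heat-shock genes in the Fkbp5 levels was not tested. Tsc22d3 was 754, 566, 650.3 and 617 CPM in P301S neg, P301S hom at 30 and 33 weeks and the library labelled CD8 KO. Its tau fold was 0.751, and Sgk1 was 759, 667, 618 and 725 CPM in the same order. Nr3c1 was 127, 132, 108 and 122 CPM, with intervals that overlapped in all pairs of libraries.

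Activated microglia carried less of the abundant members. Tsc22d3 was 120.0 CPM (115 to 125) in those of P301S hom at 30 weeks, 151 CPM at 33 weeks and 149 CPM in the library labelled CD8 KO. The corresponding Sgk1 levels were 386, 347 and 409 CPM, Fkbp5 38.8, 48.3 and 43.7 CPM, and Nr3c1 57.1, 62.1 and 62.6 CPM. In each of these libraries all 4 genes were lower in activated than in homeostatic cells. The share of all genes with that direction was not computed, so it does not set these 4 apart. The P301S neg library had 302 cells of this state, 230 of them in a cluster of low UMI count, with 341 CPM of Tsc22d3. No member passed 1.5-fold in microglia for 33 over 30 weeks or for the library labelled CD8 KO against its CD8 WT counterpart. The shares of all genes past that limit are not given for these comparisons, so this does not set the members apart.

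**Figure D5:**
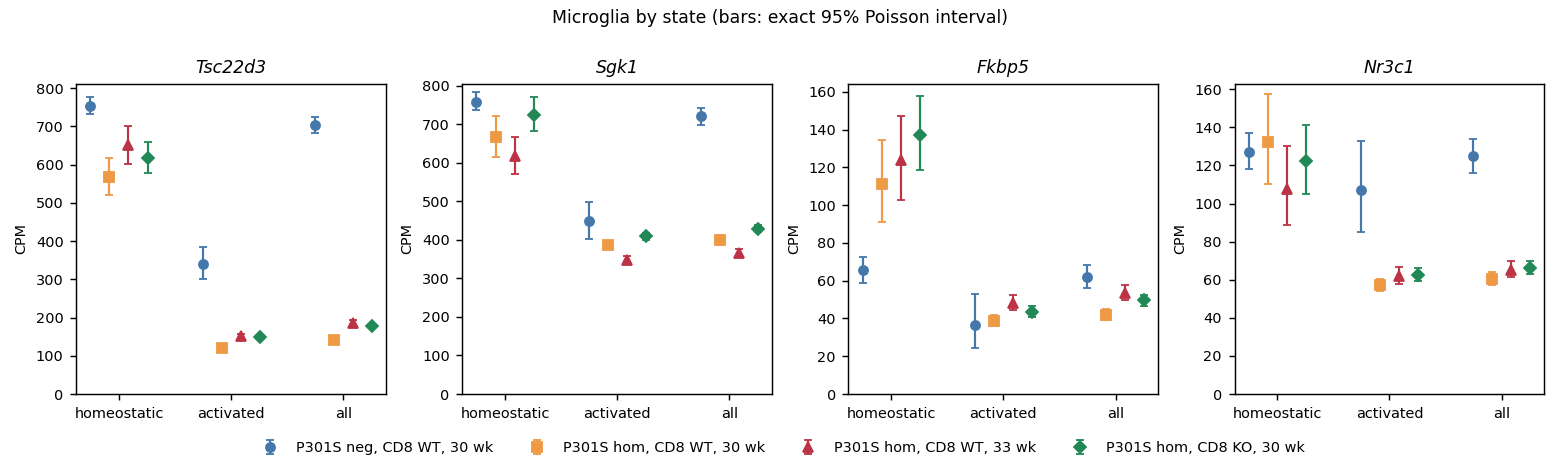
Level in CPM (vertical axis) of Nr3c1, Fkbp5, Tsc22d3 and Sgk1 in homeostatic and activated microglia of the 4 libraries, with exact 95% Poisson intervals. Homeostatic cells exceed activated cells for each gene, and homeostatic Fkbp5 is 65.6 CPM in P301S neg and 111 to 137 CPM in the P301S hom libraries.

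Mural cells gave few UMIs (184, 75, 93 and 130 cells after mixed clusters were set aside), and in the 3 comparisons between libraries no member's fold had an interval that excluded 1. For the tau comparison 2 of 5 measured genes were at least 1.5-fold higher (background 13.8%), Zbtb16 at 2.09 (0.884 to 4.72) and Tsc22d3 at 1.51 (0.986 to 2.27). For the library labelled CD8 KO 2 of 5 were lower (background 13.8%), Sgk1 at 0.534 (0.280 to 1.03) and Depp1 at 0.634 (0.307 to 1.35). For 33 over 30 weeks 1 of 5 was higher (background 10.2%), Sgk1 at 1.54 (0.865 to 2.83). Tsc22d3 was 86.6, 131, 162 and 94.98 CPM in P301S neg, P301S hom at 30 and 33 weeks and the library labelled CD8 KO, and Zbtb16 19.1, 39.9, 50.2 and 38.3 CPM. Nr3c1 was 68.6, 79.8, 89.3 and 96.5 CPM. The Tsc22d3 interval was 68.3 to 108 CPM in P301S neg, below that of 123 to 209 CPM in P301S hom at 33 weeks. In female mural cells the tau fold of Tsc22d3 was 2.26 (1.29 to 4.06), from 34 UMIs against 22.

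The wider pathway was read from lists of genes in endothelial cells. All lists, here and below, were chosen with earlier results of these data known, so their counts describe the libraries and test nothing. Of 30 further glucocorticoid targets 27 were measured in the tau comparison, and 6 were at least 1.5-fold higher (background 4.48%) and 0 lower (background 6.7%), with a median log2 fold of 0.31, beside -0.04 over all measured genes. Fam107a, an actin-binding protein gene, was 104 CPM in P301S neg, 192 CPM in P301S hom at 30 weeks, 224 CPM at 33 weeks and 197 CPM in the library labelled CD8 KO, a tau fold of 1.84 (1.71 to 1.99), and 2.07 in female cells. Klf15, a transcription factor gene, was 0.898 against 2.54 CPM (2.83-fold, 1.28 to 6.50), and Slc10a6, a steroid sulfate transporter gene, was at 1.86 (0.804 to 4.26). Cd163, a scavenger receptor gene of macrophages, had 20 UMIs in P301S hom at 30 weeks against 3 in P301S neg (13.3-fold, 3.95 to 70.1). The other P301S hom libraries had fewer, 7 UMIs at 33 weeks (1.25 CPM) and 6 in the library labelled CD8 KO (0.732 CPM), against 2.99 CPM at 30 weeks. In female cells the list gave 6 higher (background 4.93%) and 1 lower (background 8.37%) of 26. A list of 17 genes held the member Nr3c1 itself, the related receptor gene Nr3c2, and chaperones, co-regulators and hormone-converting enzymes around the receptor. Of these, 15 were measured, with 0 higher and 2 lower: Stip1 at 0.540 and Hsp90aa1 at 0.661. Hsp90aa1, a chaperone of the receptor that is also in the heat-shock list, was 1609 CPM in male and 450.4 CPM in female cells of P301S neg, and in female cells alone 0 of the 15 were higher and 0 lower.

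The remaining lists bear on other inputs to these genes, and their tau counts can be read against the same shares of all genes, 4.48% higher and 6.7% lower. Of 11 measured FoxO targets 0 passed 1.5-fold in either direction, with a median log2 fold of 0.33. Of 18 immediate-early genes 0 passed, with a median of 0.10. Of 11 heat-shock genes 0 were higher and 7 lower, with a median of -0.61, and in female cells 2 were higher (background 4.93%) and 0 lower (background 8.37%), with a median of 0.38. Of 15 clock output genes 1 was higher and 3 lower. Dbp, a clock output transcription factor gene, was 42.0, 20.9, 53.4 and 8.05 CPM in the 4 libraries. Arntl, of the same list, was 24.1, 26.6, 20.7 and 38.9 CPM in that order, highest where Dbp was lowest. For 33 over 30 weeks 7 of 15 clock genes were higher (background 3.04%) and 0 lower (background 5.13%), with Dbp at 2.55 (2.08 to 3.14) and Per2 at 2.19. The sexes differed at 33 weeks, each from 1 mouse. Dbp was 67.2 CPM in male and 32.0 CPM in female cells, beside 21.1 CPM in female cells at 30 weeks. Per2 was 7.38 and 5.33 CPM, beside 2.72 CPM, and Tef 52.9 and 25.1 CPM, beside 25.3 CPM. The count in female cells alone was not computed, so age, sex and animal cannot be told apart here. For the library labelled CD8 KO 0 were higher (background 2.85%) and 3 lower (background 3.92%), with Dbp at 0.384 (0.282 to 0.518). Among further glucocorticoid targets 3 were higher and 1 lower of 27 in that comparison, with Lcn2 at 1.80 (1.59 to 2.04), and 1 higher and 1 lower of 28 at 33 weeks. The lower gene was Cd163 both times, at 0.244 (0.0803 to 0.631) and 0.417 (0.149 to 1.03). Hour of collection is not given, so its part in the levels of Dbp, Arntl and the members was not tested.

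Genes whose pattern was most like each member were sought among 12659 genes over the same 50 combinations of class and library. Map3k6 was closest to Lsr (r = 0.963), Trim16 (0.959) and Fgd5 (0.955). Depp1 was closest to Pdgfd (0.964), Jcad (0.961) and Gm9917 (0.958), and Zbtb16 to Ppfibp1 (0.948), Lims2 (0.940) and Caskin2 (0.931). Sgk1 was closest to Cebpg (0.928), Cttnbp2nl (0.922) and Selenop (0.910), Nr3c1 to Ddx50 (0.925), Map3k3 (0.922) and Arhgap31 (0.916), and Pdk4 to Mid2 (0.906), Six5 (0.903) and Eva1c (0.892). Tsc22d3 had Git2 (0.901), Zrsr2 (0.862) and Srsf7 (0.856) as its nearest genes. Fkbp5 had the weakest nearest genes of the 8, Eif4a1 (0.838), Ppp1r18 (0.812) and Ctsc (0.782).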

How the data were processed

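Droplet 3' single-cell RNA sequencing of 4 spinal cord libraries was analysed. The authors deposited unnormalized UMI counts for each gene in each cell barcode, made with Cell Ranger 6.0.1 per the file headers, on mm10 per the submitters' processing notes. Cells were kept with at least 500 UMIs, 200 genes and at most 15% mitochondrial UMIs, and scrublet (scanpy 1.11.5), run on each library with 6% doublets expected, removed 0.870% to 1.71%. Cells were clustered together on 2000 variable genes, without the members and listed genes, with 30 principal components, 15 neighbours and Leiden resolution 1 (python-igraph 0.11.9, 38 clusters). Clusters were named from marker lists with at least 3 markers detected, and those with markers of another lineage above a ratio of 0.2 were set aside. Clusters led by mural markers were first clustered again. Parts of them led by endothelial markers were set aside whatever their ratio, such as 103 cells at 0.068, also in the alternative that kept mixed clusters. Cells set aside in these ways were 3.92% to 9.08% of each library. The pericyte cluster that was kept lay close to the limit of 0.2, at 0.176 for endothelial markers. UMIs were summed per class and library and scaled to CPM. Depth was 36331214 to 43531426 UMIs per library.

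Each group is 1 library, so no test between groups was made and no p-value is given. The 3 comparisons set the P301S hom CD8 WT library at 30 weeks against P301S neg, and the library labelled CD8 KO and that at 33 weeks against it, so they share 1 library. A gene counted as measured when the 2 libraries held at least 20 UMIs of it in sum, and as higher or lower past 1.5-fold, in classes of at least 50 cells in both. A fold against a count of 0 used a floor of 3 counts. The members and lists (receptor and machinery, other glucocorticoid targets, FoxO targets, clock output, dissociation and immediate early, heat shock) were chosen with earlier results of these data known. Every member was described, and from each list up to 4 genes with the largest fold past 1.5 in endothelial cells, not all of which are printed. The heat-shock sums by sex were added after the data were seen. Genes of like pattern were the 3 with the highest Pearson correlation of log2(CPM + 5) among genes reaching 20 CPM. The alternatives were TMM scaling (edgeR 4.0.16 in R 4.3.3), equal weight per cell, at most 10% mitochondrial UMIs, at least 1000 UMIs, doublets kept, Leiden resolution 2, listed genes among the variable genes, mixed clusters kept, a fold of 2, no minimum of UMIs and female cells only. Female cells only for 33 over 30 weeks and microglia without a cluster of low UMI count were added after the data were seen. Intervals and folds were tested on simulated data. Python 3.11.15 was used with scipy 1.17.1, numpy 2.4.6, scikit-learn 1.9.0, pandas 2.3.3 and matplotlib 3.10.9.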

Additional observations from a re-analysis of the deposited data

Results flagged for a closer look

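Tsc22d3 moved in opposite directions in 2 cell classes under the same contrast, P301S hom over P301S neg at 30 weeks. Its log2 fold was 3.09 higher in endothelial cells, where the level was 1.70-fold higher in P301S hom, than in microglia, where it was 5.01-fold lower. This difference was not tested, since each group is 1 library. The microglial clusters that made up the class differed between these libraries, and within homeostatic microglia the fold was 0.751.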

How the results depend on the processing

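Over the 10 alternatives that can move a fold, 520 of 565 folds of single genes stayed within the counting error of the main fold. Direction was checked only for main folds past 1.5-fold, so smaller folds among the 520 can have changed sign. Of the folds outside the 520, 15 (of 37) moved or turned in female cells and 15 (of 66) with equal weights. Over all 12 alternatives, 209 of 254 counts of genes stayed within 1.5 times the main count. All counts below are of members. In endothelial cells the 4 higher for the transgene became 2 at a fold of 2, the 2 higher for the library labelled CD8 KO became 0, and the 3 higher at 33 weeks became 0, or 1 in female cells, where the log2 fold of Fkbp5 was -0.57. At a fold of 2 the homeostatic count for the transgene went from 1 to 0.

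In microglia, counts of 0 higher became 1 for the transgene with doublets kept or no minimum of UMIs. For 33 over 30 weeks they became 1 with doublets kept, equal weights, female cells or no minimum, and 1 was lower in the last 2 cases. For the library labelled CD8 KO they became 2 with doublets kept and 1 with equal weights or no minimum. The 3 lower for the transgene became 5 without a minimum. In homeostatic cells no minimum gave 4 higher for the transgene, 1 higher at 33 weeks and 1 lower for the library labelled CD8 KO.

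Mural counts were the least stable. The 2 higher for the transgene became 1 at a fold of 2, with TMM, 10% mitochondrial UMIs, Leiden resolution 2, doublets kept or female cells, and 1 was lower with Leiden resolution 2, doublets kept or no minimum. The 2 lower for the library labelled CD8 KO became 0 at a fold of 2, Leiden resolution 2, doublets kept or mixed clusters kept, and 1 with TMM, 10% mitochondrial UMIs or equal weights. The 0 higher there became 1 with equal weights or mixed clusters and 2 without a minimum. The 1 higher at 33 weeks became 0 at a fold of 2 or 1000 UMIs, 2 with Leiden resolution 2 or equal weights, 3 with doublets kept and 4 without a minimum. Mural log2 folds that turned were Tsc22d3 for the transgene with doublets kept (-0.086), Sgk1 at 33 weeks with equal weights (-0.39), Sgk1 for the library labelled CD8 KO with doublets kept (0.49), Leiden resolution 2 (0.20) or mixed clusters (0.19), and Depp1 there with equal weights (0.014) or mixed clusters (0.34). The cause was not tested. Listed genes among the variable genes left no mural value, and male cells alone gave none for the 3 comparisons, since P301S hom at 30 weeks held no male cell. Depth limits Pdk4 and all mural values. No paired analysis was possible because each group is 1 library.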

Other observations

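Other cell classes held members at levels that the comparisons above do not cover. Among P301S hom mice, Tsc22d3 in B cells was 319 CPM at 30 weeks, 502 CPM at 33 weeks and, in the library labelled CD8 KO, 663 CPM (143, 153 and 70 cells), folds of 1.57 (1.31 to 1.89) and 2.08 (1.67 to 2.58). Sgk1 in the same cells was 32.5, 83.0 and 114 CPM, folds of 2.56 (1.51 to 4.44) and 3.50 (1.89 to 6.50). The class joined clusters led by B-cell and by plasma-cell markers. A cluster with Top2a and Mki67 among its leading genes gave 16, 12 and 2 of the cells in that order. Its median was 7962 UMIs per cell, against 2114 and 2291 in the other clusters. The part of this mix in the folds was not tested. In female B cells alone (116 and 70 cells) the folds of 33 over 30 weeks were 1.44 (1.14 to 1.82) for Tsc22d3 and 1.04 (0.438 to 2.31) for Sgk1, neither past 1.5-fold. For the library labelled CD8 KO, sex and label cannot be told apart. In monocytes Fkbp5 was 30.8 CPM in P301S neg and 82.9 CPM in P301S hom at 30 weeks, a fold of 2.69 (1.55 to 4.81).

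Fibroblasts (38, 37, 20 and 40 cells) had an Fkbp5 level of 51.4 CPM (31.0 to 80.3) in P301S neg, while P301S hom had 162 CPM (115 to 223) at 30 weeks, 319 CPM (237 to 421) at 33 weeks and, in the library labelled CD8 KO, 152 CPM (116 to 197). Border macrophages (22, 16, 23 and 23 cells) had 49.8 CPM (16.2 to 116), 128 CPM (61.2 to 235), 239 CPM (150.0 to 362) and 178 CPM (97.3 to 299) in the same order. P301S neg was the lowest library in both classes, although the border macrophage intervals of P301S neg and P301S hom at 30 weeks overlapped.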
